A study of Mus musculus with 2 samples.

Results

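The S100 genes encode small calcium-binding proteins, and 10 of them were examined among 28785 genes or transcripts represented on the array: S100a1, S100a4, S100a6, S100a8, S100a9, S100a10, S100a11, S100a13, S100a16 and S100b. The members are all non-control spots that carry these gene names in the scanner files. Each of the 10 genes has 1 probe printed at 1 spot per array, so a value in a tumour rests on a single spot. Gene expression was measured in 2 tumours that grew under the skin of male C57BL/6J mice from RMS3, a mouse line that the labels call a PRMS cell line without explaining the abbreviation. Each graft started from 1000000 cells in 200 µl of buffer, and the tumours were taken after 2 weeks. The treatment protocol calls the harvested tumours metastatic, while the other labels describe growth at the injection site. They form 1 group of 2 tumours from 1 cell line, with no uninjected, cultured or treated control, and the numbers 1 and 2 carry no order. The tumours contain host cells as well as grafted cells, and in bulk RNA fewer cells of a type and less RNA per cell cannot be told apart. All 10 genes of a skeletal muscle list, Myod1 and Myog among them, were above background in both tumours, against 59.2% of all genes. That list was drawn up with earlier results of these data known, so the count is a description only. Myod1 was only a little above the lowest signals called.

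S100 proteins bind calcium through EF-hand motifs, mostly work as dimers, and change shape on binding calcium so that they can hold a partner protein. Some act inside the cell on annexins, myosins or calcium pumps, while S100a8 and S100a9 are stored by neutrophils and can be released as danger signals that act on receptors such as Tlr4 and Ager. S100a4, also called metastasin or Fsp1, is known from motile and mesenchymal cells, S100b from glial, Schwann and fat cells, and S100a1 from striated muscle.

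RefSeq promoter sequences (GRCm38.p6) were found for 9 of the 10 genes, of which 8 lie on chromosome 3 and S100b on chromosome 10. In the RefSeq gene order S100a8 and S100a9 are direct neighbours, S100a1 and S100a13 are too, and S100a11 and S100a10 adjoin each other apart from the main stretch. The 180 bases before the start of 4 genes are shown, because S100a8 and S100a9 had the largest differences between the tumours among the members measured away from defects of the array surface, and S100a4 and S100a11 give a contrast in promoter type. They lie at chr3:90668891-90669070 (plus strand), chr3:90695722-90695901 (minus strand), chr3:90603590-90603769 (plus strand) and chr3:93520316-93520495 (plus strand). Capitals mark matches on either strand to the letters TATAAA bound by the general factor TBP (the TATA box), to TTNNGNAA, the core that C/EBP factors can bind, to TGANTCA, bound by AP-1, to GGGCGG, known as the GC box and bound by Sp1, to the E-box CAGCTG, and to GAGGAAG, a core of the kind bound by PU.1.
S100a8: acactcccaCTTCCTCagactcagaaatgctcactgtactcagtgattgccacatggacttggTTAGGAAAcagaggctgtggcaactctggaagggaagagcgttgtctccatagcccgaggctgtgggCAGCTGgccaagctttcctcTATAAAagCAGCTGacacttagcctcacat
S100a9: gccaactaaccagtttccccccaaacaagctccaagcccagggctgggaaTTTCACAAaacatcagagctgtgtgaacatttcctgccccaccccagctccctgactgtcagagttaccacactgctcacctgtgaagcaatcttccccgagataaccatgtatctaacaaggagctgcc
S100a4: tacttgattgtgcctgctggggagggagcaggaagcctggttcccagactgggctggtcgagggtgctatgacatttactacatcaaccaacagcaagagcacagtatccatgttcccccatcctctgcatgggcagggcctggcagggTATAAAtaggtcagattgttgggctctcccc
S100a11: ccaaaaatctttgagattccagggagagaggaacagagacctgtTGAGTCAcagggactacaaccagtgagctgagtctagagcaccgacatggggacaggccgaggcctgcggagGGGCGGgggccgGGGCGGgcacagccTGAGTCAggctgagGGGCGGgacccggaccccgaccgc
A TATA box began 30 bases before the start of S100a8 and 31 bases before that of S100a4. TATAAA occurs in 12.4% of the 32851 promoter windows when the 250 bases before each start are searched. S100a8 also held 2 E-boxes, at 50 and 22 bases (13% of windows hold at least 1), a GAGGAAG match at 171 bases (10.6%) and a TTNNGNAA match at 117 bases (36.8%). S100a9 held matches to TTNNGNAA at 236 and 130 bases, and a GC box at 223 bases, of which those at 236 and 223 bases lie outside the stretch shown. S100a11 had no TATAAA in its window but 3 GC boxes (32.7% of windows hold at least 1) and 2 AP-1 matches (6.75%). The windows of S100a1 and S100a13 face away from each other on opposite strands, and the 180 bases before their starts share 104 bases. These matches describe letters, not sites in use.

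All 10 S100 genes were well above background in both tumours, against 59.2% of all genes when every unflagged spot is used. The members were chosen with earlier results of these data known, and of 5 other S100 genes on the array 3 were detected in both tumours. Shares detected among the members therefore describe the genes chosen, not the whole family. The scanner file flags 1128 outlier spots on array 1 and 69 on array 2. Unflagged spots beside the flags of array 1 varied more: repeat spots of 171 probes had an SD of 0.89 (log2) on that array with them and 0.23 without them. Spots within 2 rows and columns of such a flag were therefore set aside. Away from flags 7 members remained, all 7 of them detected, against 61.2% of 22780 genes. The spots of S100a6, S100a16 and S100b lie near a flag, at a distance of 2, 1 and 2 rows or columns, and their values are given on the same scale as uncertain. No member had a saturated pixel on either array. Levels below are given in log2 with the 75th percentile of each array set to 0, so they can be set against each other for 1 gene, never across genes.

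None of the 7 members was at least 2-fold apart between the tumours, whereas 6.45% of 13945 genes were, 361 higher in tumour 2 and 539 in tumour 1. That split was 172 and 150 after normexp background correction and 261 and 807 in the unscaled value table. Of the 7 members 5 were higher in tumour 2, against 48.4% of all genes, and their median difference was 0.20 (log2, tumour 2 minus tumour 1), against -0.01 over all genes. The median size of the difference, without its sign, was 0.20 for the members and 0.27 for all genes. With 1 tumour on each side there is no replicate check of any difference and no p-value.

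The error of a spot was read from probes printed several times. The difference between arrays of such repeat spots had an SD of 0.23 over 171 probes, 0.06 over the 33 probes with a mean level above 3, 0.24 for levels from 0 to 3 and 0.27 below 0. Against the SD over all probes, 3 of 7 members differed by more than 1 SD, where 56.1% of all genes did, and 1 by more than 2 SD, where 28.8% did. Of the 7 members 6 had a mean level above 3. Among 1449 genes of that brightness 1.45% were at least 2-fold apart, 58% were higher in tumour 2 and 63% differed by more than 2 times the SD of bright repeat spots. Of the 6 bright members 5 were higher in tumour 2, and 5 differed by more than that. Repeat spots show error within an array only. Of 8 control probes for added RNA measured on both arrays, 7 were higher on array 2, by 0.83 to 0.99, and 1 was lower by a difference of -1.05. All of these were larger in size than the difference of any of the 10 members. No setting scaled the arrays on these probes, so the sign of a member's difference holds only for the scales used.

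**Figure D1:**
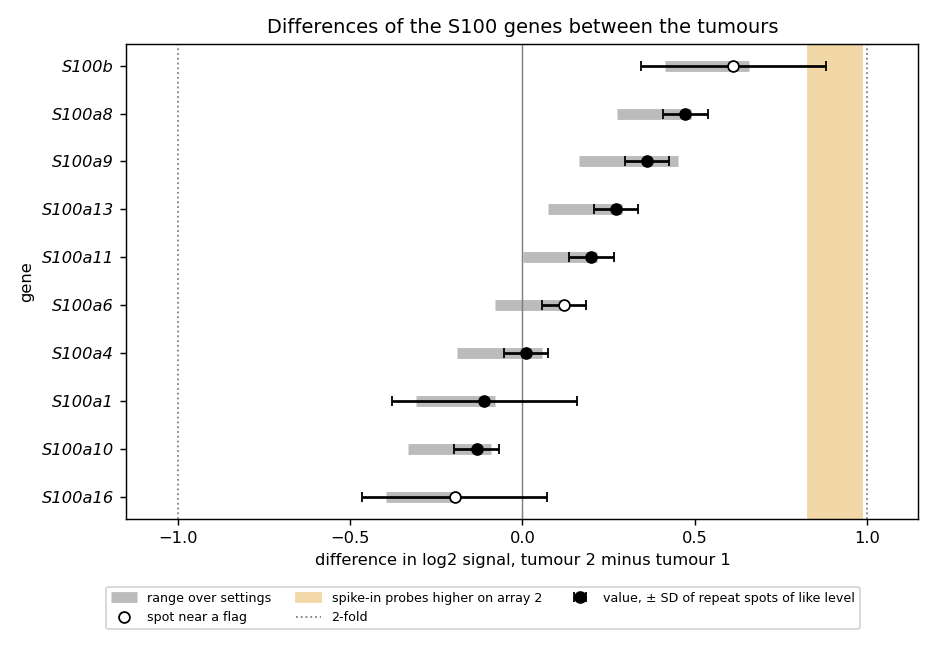
Difference in log2 signal, tumour 2 minus tumour 1 (horizontal axis), of each S100 gene (vertical axis). Points are the values with the SD of repeat spots of like level, open points are spots near a flag, grey bars are the range over settings, the shaded band spans the 7 control probes for added RNA that were higher on array 2 (0.83 to 0.99), and dotted lines mark 2-fold; every S100 gene lies inside the dotted lines, S100b and S100a8 farthest towards tumour 2.

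S100a8 and S100a9, the subunits of calprotectin, a complex that binds calcium, zinc and manganese and makes up a large share of neutrophil cytosol protein, were both higher in tumour 2. The processed signal of S100a8 was 12200 in tumour 1 and 15352 in tumour 2, a level of 3.62 and 4.09 (3.85 ± 0.33, SD, n = 2). Tumour 2 was thus 1.39-fold higher, a difference of 0.47. Its spot lies in the lower rows of the array, below the flagged area. Scaling on those rows alone uses the same spot again, and the difference was 0.47 as well. The signal of S100a9 was 55700 and 64857, a level of 5.81 and 6.17 (5.99 ± 0.26, n = 2). The difference was 0.36, or 1.28-fold. Under the alternatives that can move a gene with 1 detected probe, both were higher in tumour 2. The range was 0.27 to 0.49 for S100a8 (9 alternatives) and 0.16 to 0.45 for S100a9 (7). None of these alternatives scaled the arrays on the control probes for added RNA. The spots around them, within 10 rows and columns, had median differences of 0.06 and -0.03. Relative to those neighbours the differences were 0.42 and 0.39.

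Neutrophil markers were higher in tumour 2 as well. Of the 11 with an unflagged spot 7 were detected in both tumours. Each of the 5 with a spot away from flags was higher in tumour 2, by 0.22 to 0.80 (median 0.47), and their summed signal relative to the 75th percentile was 0.86 in tumour 1 and 1.18 in tumour 2. They are the G-CSF receptor Csf3r (0.80), lactoferrin Ltf (0.63), the chemokine receptor Cxcr2 (0.47), lipocalin Lcn2 (0.40) and the gelatinase Mmp9 (0.22). All 5 were dim, with levels below 0 in both tumours, where repeat spots had an SD of 0.27. Ltf in tumour 1 (-4.89) lay not far above the floor of calls on that array (-5.78). With normexp all 5 stayed higher in tumour 2, but the list median was 0.26. The granule genes Ngp and Camp were above background in tumour 2 only, Camp at a spot near a flag. The protease gene Elane and the peroxidase gene Mpo, both of immature neutrophils, were above background in neither. Macrophage markers, the other myeloid list, were 4 higher and 4 lower of 8 measured, with a median of 0.01 and a summed signal of 13.3 in tumour 1 and 12.4 in tumour 2. Of 4 dendritic cell markers measured 3 were higher in tumour 1, Itgax and H2-Aa at least 2-fold (-1.04 and -1.13), with a summed signal of 0.51 and 0.28. Flt3, also on the dendritic cell list, went the other way at a spot near a flag. It was above background in tumour 2 only, at least 4.21-fold higher there. The part of neutrophil content in the S100a8 and S100a9 values was not tested. The neutrophil markers were already known to be higher in tumour 2 when their list was drawn up.

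**Figure D2:**
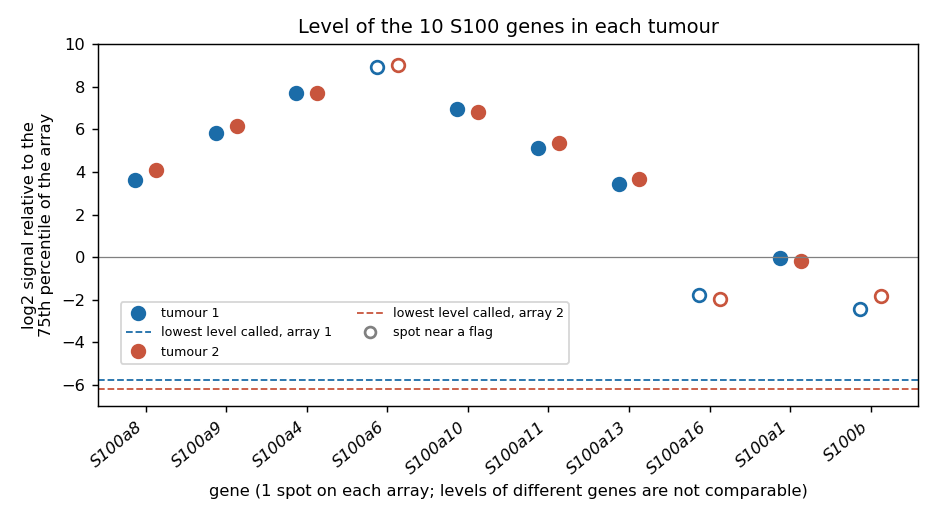
Log2 signal relative to the 75th percentile of the array (vertical axis) for each S100 gene (horizontal axis) in tumour 1 (blue) and tumour 2 (red), 1 spot per array. Open circles are spots near a flag and dashed lines the floor of calls above background (-5.78 for array 1, -6.19 for array 2); every S100 gene lies well above both lines, and levels of different genes are not to be compared.

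S100a4 and S100a6, which are abundant in motile and mesenchymal cells, had differences of 0.01 and 0.12. S100a4, which binds non-muscle myosin, gave signals of 206000 in tumour 1 and 187947 in tumour 2. After scaling the levels were 7.69 and 7.70 (7.70 ± 0.01, n = 2), a difference of 0.01. Its sign turned with the setting, between -0.19 with all unflagged spots, where the median of all genes was itself -0.18, and 0.06 relative to neighbouring spots. S100a6, or calcyclin, which binds the ubiquitin adaptor Cacybp, had signals of 480000 and 472847. The highest non-control signals on the arrays were 506000 and 495688, and with no saturated pixel the S100a6 spot lay just under them. Its level was 8.91 and 9.03, a difference of 0.12 at a spot near a flag, and it was -0.08 with the scale of all unflagged spots.

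Of 8 fibroblast markers 7 were higher in tumour 1, with a list median of -0.39. The summed signal was 111 in tumour 1 and 101 in tumour 2. Each gene enters that sum by the median of its probes, and most of it came from Col1a2 (6.35 and 6.29, a difference of -0.06). Mfap5 (-1.95) was at least 2-fold apart, and so was Dcn (-1.12) by the median of its 2 probes. The bright Dcn probe gave -0.57, under 2-fold, and the dim probe -1.67. Pdgfra lay at -0.16, with probes that disagreed (-0.57 and 0.25), Lum at -0.44 and Col1a1 at -0.34. S100a4 thus differed from most genes of that list in direction or size, a description that was not tested.

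S100a10 and S100a11, which pair with annexins at membranes, lay on opposite sides of 0. S100a10, the light chain of the annexin A2 complex, had signals of 122000 and 100815 and levels of 6.94 and 6.80 (6.87 ± 0.09, n = 2). It was 1.10-fold higher in tumour 1, a difference of -0.13 that kept its sign under the 7 such alternatives with a value (-0.33 to -0.09). S100a11, a partner of annexin A1 with a role in membrane repair and keratinocyte growth control, had signals of 35000 and 36449 and levels of 5.14 and 5.34 (5.24 ± 0.14, n = 2). Its difference was 0.20. With the same spot scaled on the lower rows alone it was 0.20 too, and it was 0.00 with the scale of all unflagged spots. Anxa2 itself was 0.42 higher in tumour 2 by the probe away from flags and 1.05 higher by a probe near a flag. The large scaffold Ahnak, which binds the S100a10 complex, was higher in tumour 2 by 0.12 to 0.56 with all 5 probes away from flags, and its probe near a flag gave -0.18. Anxa5 (0.04) and Anxa11 (0.08) were close to level. The 2 probes of Anxa6 disagreed, at 0.34 and -1.19.

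S100a13, which takes part in the release of Fgf1 and interleukin 1 alpha by a route outside the usual secretory path, had signals of 10600 and 11607. Its levels were 3.41 and 3.69 (3.55 ± 0.19, n = 2), and tumour 2 was 1.21-fold higher, a difference of 0.27 that stayed positive under 8 such alternatives (0.07 to 0.29). Fgf1 was level between the tumours, at -4.31 and -4.32. Il1a was above background in tumour 1 only, at least 2.77-fold and 2.48-fold higher there by its 2 probes, when the bound is set by the higher of the dim spot's own level and the lowest level called on array 2. Syt1, the synaptotagmin of the release complex, was above background on neither array. S100a16, a widely expressed member linked to fat cell formation, had signals of 292 and 231 at a spot next to a flag. Its difference was -0.20 there and -0.27 relative to neighbouring spots.

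S100a1, which acts on the ryanodine receptor and the calcium pump in muscle, was close to level while the other muscle genes were mostly higher in tumour 2. Its signals were 962 and 808 and its levels -0.05 and -0.16 (-0.10 ± 0.08, n = 2). The difference of -0.11 was smaller than the SD of repeat spots of its level (0.27), and it stayed negative under 8 such alternatives (-0.31 to -0.08). The ryanodine receptor Ryr1 was 0.79 higher in tumour 2 and the pump Atp2a1 0.48. Of 9 measured skeletal muscle genes 7 were higher in tumour 2 (list median 0.50), with a summed signal of 7.92 in tumour 1 and 14.96 in tumour 2. Most of that sum came from Myh8 (levels of 2.02 and 2.99) and Myh4. The Myh8 value rests on 1 probe, as its others were not above background on either array. Without a detection filter Myh8 was lower in tumour 2. Desmin (1.24), Myh3 (1.07) and Myh4 (1.19) were at least 2-fold apart, while Myod1 (-0.35) and Myf6 (-0.48) were higher in tumour 1.

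S100b, a regulator of cell growth in glia and known to bind p53 and the kinase Stk38, gave the largest difference among the 10. Its signals were 183 in tumour 1 and 254 in tumour 2, levels of -2.44 and -1.83 (-2.14 ± 0.43, n = 2). The spot lies 2 rows or columns from a flag on array 1. There the pixels within the spot had a coefficient of variation of 30.4%, against 11.01% on array 2. The difference of 0.61 (1.53-fold) became 0.41 with the scale of all unflagged spots and 0.66 relative to neighbouring spots, so it was positive under each of 3 settings, with no value away from flags. Markers of cells that usually carry S100b did not share one direction. Of 8 Schwann cell markers 6 could be measured away from flags, and these were higher in tumour 1 (list median -0.25), with a summed signal of 3.08 and 2.36. Most of these 6 genes were dim, and the sum came mostly from a single brighter gene. Sox10, with levels of -5.16 and -5.25 not far above the floors of calls (-5.78 and -6.19), had a difference of -0.09 that turned positive under normexp. Mbp was 2.85 higher in tumour 2 by its detected probe, which lies near a flag, while its other 2 probes were not well above background on either array. Foxd3 was above background in tumour 2 only. Both adipocyte markers measured were higher in tumour 1, Cfd by -1.69 and Fabp4 by -0.41, with a summed signal of 2.01 and 1.39. Adipoq was above background in tumour 1 only, at least 1.45-fold higher there. Plin1 was above background in tumour 2 only, at least 2.60-fold higher there, and Cidec also in tumour 2 only, with no fold given. Of the melanocyte markers Dct, Tyr, Tyrp1 and Mlana were above background in neither tumour. Mitf and Pmel were above background in both, Pmel at a spot near a flag. Mitf had a difference of 0.11, with 2 probes that disagreed (0.40 and -0.17). Whether the neighbouring flag moved the S100b value was not tested. Trp53 was 0.21 higher in tumour 2, and the 2 probes of Stk38 were both lower there, by -0.49 and -1.38.

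**Figure D3:**
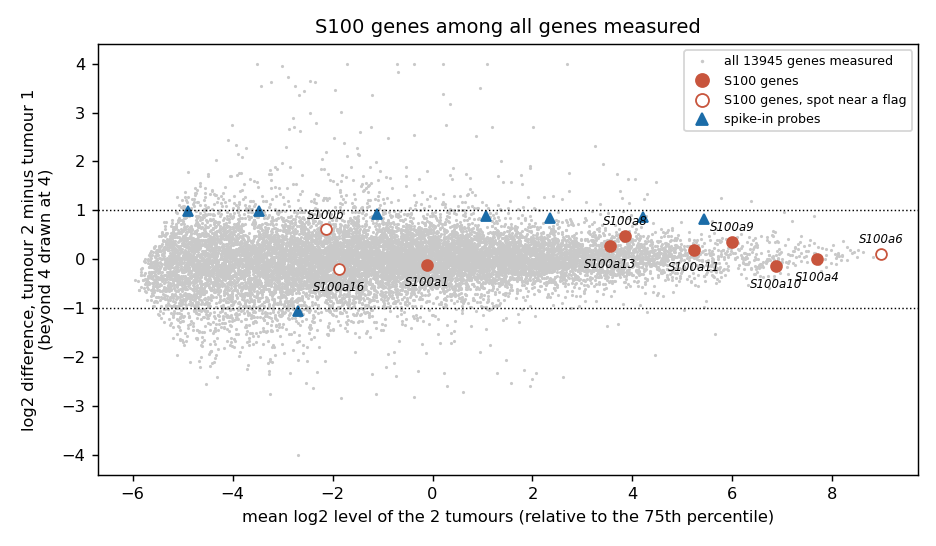
Difference between the tumours (vertical axis, log2, tumour 2 minus tumour 1) against mean level (horizontal axis, log2 relative to the 75th percentile) for 13945 genes in grey, the S100 genes in red (open where the spot lies near a flag) and the control probes for added RNA as blue triangles. Differences beyond 4 are drawn at 4. The S100 genes lie within the grey cloud and inside the dotted 2-fold lines. Of 8 control probes 7 lie above every S100 gene but below the upper 2-fold line.

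Of the other S100 genes on the array S100a14 stood out from the members. Of 12 further family names 5 were found on the array, and 3 were above background in both tumours. S100a14, an S100 gene of epithelia, had levels of -5.34 (tumour 1) and -3.63 (tumour 2), which is 3.27-fold or 1.71 higher in the latter. The level in tumour 1 lies just above the floor of calls on that array (-5.78), and the fold is uncertain. S100a5, which lies next to S100a4, was at -0.68 and -0.49 (0.20). S100a3, best known from hair follicles, was detected at a spot near a flag with a difference of -0.05. S100a7a, the mouse psoriasin relative, was above background in neither tumour. Of the keratinocyte markers 5 could be measured and all were higher in tumour 2, Krt5 (3.55) and Krt14 (3.64) most. Krt5 in tumour 1 (-5.21) also lay just above the floor, so its fold is uncertain too. Ivl, Lor and Sfn lay between 0.06 and 0.26. Of these Lor and Sfn were lower in tumour 2 with all unflagged spots (-0.14 and -0.02), Lor also under normexp and in the unscaled table. The summed signal of the 5 was 16.2 and 18.8, most of it from Sfn and Lor. Krt1 was above background in tumour 1 only, at least 2.96-fold higher there, and Krt15 in tumour 2 only at a spot near a flag. Trp63 and Dsg3 were above background in neither tumour. The part of keratinocyte content in the S100a14 value was not tested.

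Among the binding partners and receptors of S100 proteins 22 of 26 with an unflagged spot were detected in both tumours. Away from flags 19 could be measured, 13 higher in tumour 2 and 6 in tumour 1 (9 and 13 with all unflagged spots, 7 and 12 in the unscaled table), with a median of 0.10 and a range from -0.94 (Stk38) to 1.29 (Myh9). The receptor Tlr4 was 0.12 higher in tumour 2 and the scavenger receptor Cd36 0.10 higher, while Cd33 was -0.70. Ager, the receptor RAGE, was too dim to be called on either array. Myh9, the non-muscle myosin bound by S100a4, was past 2-fold by the median of its probes, but the 2 probes disagreed. The bright probe gave 0.09 and the dim probe 2.48. Sugt1, a partner of S100a6, was level (0.01).

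**Figure D4:**
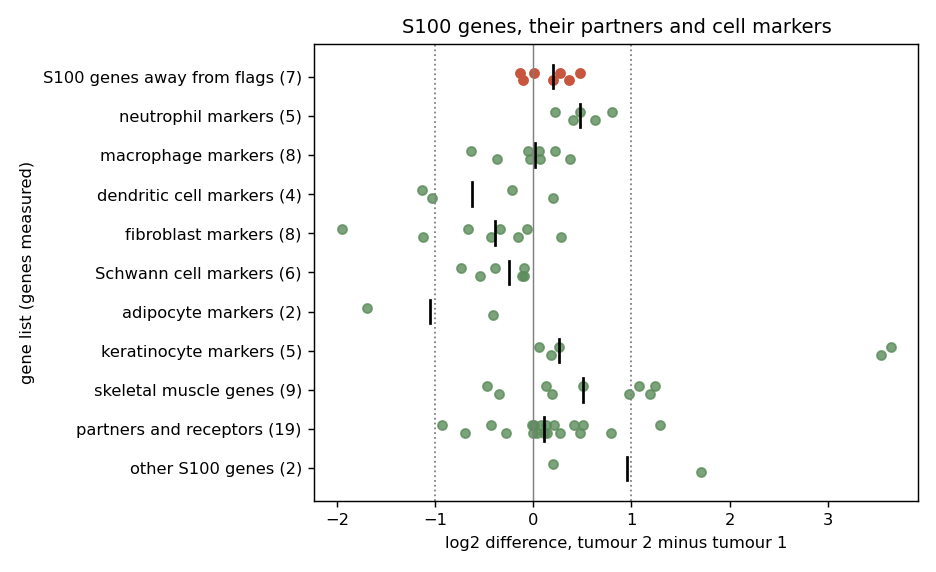
Difference in log2 signal, tumour 2 minus tumour 1 (horizontal axis), for the 7 S100 genes away from flags (red) and for genes of marker and partner lists (green, number measured in brackets; vertical axis). Black bars are list medians and dotted lines mark 2-fold; the 5 neutrophil markers all lie above 0 and the 6 Schwann cell markers measured away from flags below it, while the S100 genes lie between -0.13 and 0.47.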

How the data were processed

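Total RNA of 2 tumours was measured on 2 single-colour arrays of 1 slide and 1 scan, so slide and scan could not be tested as batches. The deposited values are linear intensity. Per the file headers they come from Agilent Feature Extraction 9.1.3.1 (8 in the submitters' processing notes), with detrending within the array and no scaling between arrays. The deposited value table held the processed signal, with all 45018 spots on each array within 1 percent of it. It is linear and uncentred, with medians of 63.3 and 67.5.

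For each array, the log2 75th percentile of the processed signal was subtracted from log2 signals, with the percentile taken over 31299 kept spots (995 and 902). Controls and outlier spots were dropped, as were spots within 2 rows and columns of any outlier flag of array 1 (1128 flagged spots) or of 11 spots of array 2 with a local background above 100. Without this filter 62.3% and 66.1% of the non-control spots were well above background. Detection of a probe required a call above background at 50% or more of its kept spots, and the difference of a gene was taken as the median of its probes that were detected and not saturated. Gene names came from the file of tumour 2, updated through RefSeq accessions (GRCm38.p6, names only). There are no groups to compare, and no test was run. The members, the lists and the filter near flags were chosen with earlier results of these data known.

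Named were all members, the other family genes, and those partners and markers at least 2-fold apart, undetected in a tumour, or among the first 4 of a list. The genes with disagreeing probes, those named as making up most of a summed signal, and some values beside them were chosen after their values were seen. Alternatives were all unflagged spots, the rows below row 338 of 532, a wider filter (4 rows and columns), normexp (offset 50, fitted without the 11 spots), quantile, loess (span 0.3) and detected-probe scaling, the unscaled value table, no detection filter, the brightest probe, and each tumour left out. After the data were seen, members near flags were included on the same scale, and members were centred on the spots within 10 rows and columns. The software was Python 3.11.15, R 4.3.3 and limma 3.58.1, and the procedure was tested on simulated data. The value of 1 Schwann cell marker is not reported here.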

Additional observations from a re-analysis of the deposited data

How the results depend on the processing

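For the 7 members away from flags there were 56 values under alternatives that can move a gene with 1 detected probe. They moved by at most 0.20, and 5 changed sign, all of them for S100a4. Of the 48 values for the 6 bright members 26 stayed within the SD of bright repeat spots (0.06) of the reported value. The count at least 2-fold apart stayed at 0. With all unflagged spots the median difference turned from 0.20 to -0.038 over 10 members, when the median of all genes moved from -0.01 to -0.18. That median of all genes was -0.16 in the unscaled value table and -0.16 without a detection filter. In the lower rows 2 members were detected. The median level of the members was 5.24, and it was 4.81 with all unflagged spots, 4.50 in the lower rows, 3.81 with the wider filter, 5.07 with normexp, 6.14 with detected probes as scale, 15.1 in the unscaled table and 4.54 with members near flags included. These settings measure other members or shift the scale. With each tumour left out it ranged from 5.14 to 5.34 and 7 members stayed detected. A difference needs both tumours, so none was computed there. No paired analysis was possible because there is 1 group of 2 tumours. Each member has 1 spot, and its signal exceeded the lowest called level by at least 3.34 (log2), so spot error and the difference between arrays set the limit, not detection.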

Other observations

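Genes of the fused S100 type, which join an S100 domain to long repeats and serve the cornified layer of skin and hair, were largely not measurable. Of 6 with an unflagged spot Flg, Flg2, Hrnr, Rptn and Tchhl1 were above background in neither tumour. Tchh, trichohyalin of the hair root sheath, was above background in tumour 2 only by its probe away from flags, at least 1.30-fold higher there. S100g, the calcium-binding protein calbindin D9k of gut and uterus, was likewise above background in tumour 2 only, at least 1.59-fold higher, at a spot near a flag. S100pbp, which encodes a protein that binds S100P, differed by 0.14 with the probe away from flags and by -0.58 with a probe near a flag.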
